A study of Mus musculus with 12 samples.

Results

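The imprinted growth genes examined here are H19, Igf2, Igf2r, Dlk1, Meg3, Rian, Peg3, Grb10, Plagl1 and Mest, the 10 rows of the deposited expression table that carry these gene names, out of 54532 genes in all. They were followed in C2C12, an established mouse myoblast line able to form myotubes in low serum. Transfection with siRNA at 30 nM for 48 h gave 4 groups: siCONTROL received a control siRNA, siKEAP1 one that targets Keap1, siCCNF one that targets Ccnf, and siKEAP1/siCCNF those of both genes. All groups were of this single line and each held 3 biological replicates. The design therefore asks how the loss of KEAP1 (the adaptor that marks the antioxidant factor NRF2 for destruction), of CCNF (cyclin F, an adaptor of another ubiquitin ligase), or of both changed these genes. Poly(A)-selected RNA was sequenced, and the 12 libraries held between 18464209 and 37743198 counts assigned to genes.

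Genomic imprinting leaves one parental copy of a gene silent, through DNA methylation laid down in the egg or the sperm. Many of the genes under this control act on the growth of the embryo and placenta: paternally expressed ones such as Igf2, Dlk1, Peg3 and Mest tend to promote growth, and maternally expressed ones such as H19, Igf2r and Grb10 tend to limit it. In skeletal muscle, H19 and Igf2 are known for their rise when myoblasts differentiate. These libraries give the sum of both alleles, so parental origin was not measured.

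Depletion reached its targets. Keap1 lay at 87.8 ± 3.05 CPM (counts per 1000000 counts of the library; mean ± SD, n = 3) in siCONTROL, at 12.6 ± 0.279 after siKEAP1 and at 24.1 ± 2.56 after siKEAP1/siCCNF. Ccnf lay at 81.1 ± 3.99 CPM in siCONTROL, at 20.5 ± 0.778 after siCCNF and at 24.5 ± 1.01 after siKEAP1/siCCNF. Myoblast markers were present in every library (Myod1, 227 ± 23.5 CPM in siCONTROL). Replicate 1 of siCONTROL and replicate 3 of siKEAP1/siCCNF stood apart from the others of their group: their deviations from the group mean ran with gene length (r across 15122 genes of −0.305 and −0.276, against −0.0944 to 0.206 in the other 10 libraries), and results that rest on them are given below with and without them.

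The members split into 3 classes by abundance. H19, Mest, Peg3 and Igf2r were well expressed, Grb10 and Plagl1 were near the limit of the test, and Igf2, Dlk1, Meg3 and Rian were at or near 0. On the deposited FPKM scale, which divides by gene length, siCONTROL cells held 919 ± 110 of H19, 65.3 ± 20.1 of Mest, 28.3 ± 5.79 of Peg3 and 11.5 ± 2.86 of Igf2r (n = 3 each). Plagl1 and Grb10 followed at 0.113 ± 0.0691 and 0.086 ± 0.0478 FPKM, 2 neighbours that did not differ beyond their spread. The 10 members together took 0.284% to 0.331% of all counts in siCONTROL libraries and 0.047% to 0.0578% in the depleted ones.

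Against siCONTROL, siKEAP1 lowered 3 of the 10 members (H19, Mest and Peg3), siCCNF lowered those same 3, and siKEAP1/siCCNF lowered 4 (Grb10 in addition), while 0 were called higher. A call means an adjusted p under 0.05 in the quasi-likelihood test of edgeR, with p-values adjusted after Benjamini and Hochberg across the 15122 genes tested. Over those genes, 20.2% fell and 20.4% rose after siKEAP1, 25.5% fell and 22.5% rose after siCCNF, and 23.6% fell and 20.6% rose after siKEAP1/siCCNF. Falls beyond 2-fold were made by 2, 3 and 4 members in these 3 comparisons, where 3.88%, 6.76% and 5.54% of all genes tested fell that far. At an unadjusted p under 0.05 in edgeR, 1 member (Igf2r, after siKEAP1) was higher, and DESeq2 called it. The other 4 members, Igf2, Dlk1, Meg3 and Rian, had too few counts for the test. All 3 comparisons use the same siCONTROL libraries, so they are not independent of each other. In RNA from a whole culture, fewer cells of a kind and less RNA per cell cannot be told apart.

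**Figure D1:**
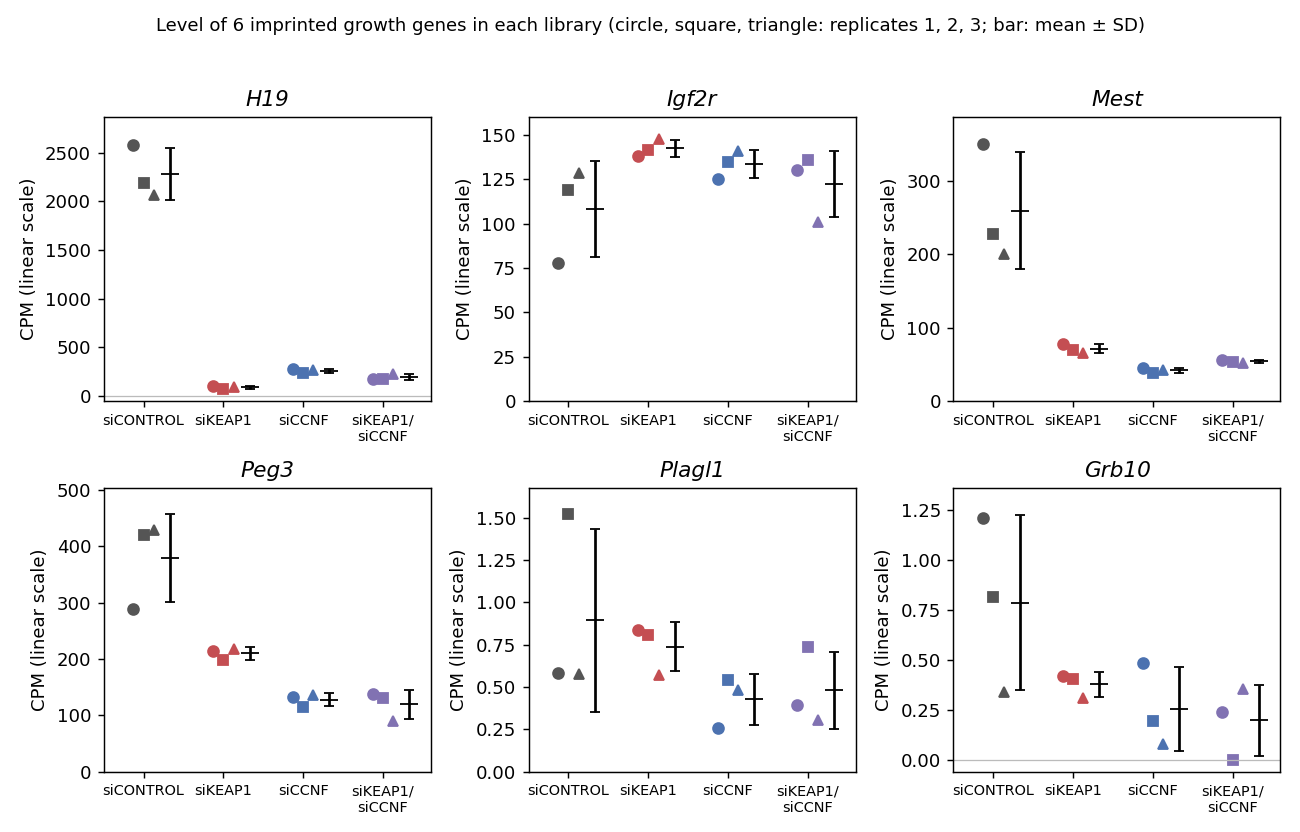
Level of the 6 tested members in each of the 12 libraries, in CPM on linear axes from 0; circles, squares and triangles are replicates 1, 2 and 3, and the black bars are the mean ± SD of 3 libraries. H19, Mest and Peg3 lie lower in every depleted library than in any siCONTROL library, while Igf2r, Plagl1 and Grb10 stay within or close to the siCONTROL range.

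H19 (chr7:142575529-142578143, minus strand, GRCm38) is a long noncoding RNA expressed from the maternal allele, which shares enhancers with Igf2 and is the host of miR-675. It had 57542, 40379 and 42842 counts in the siCONTROL libraries, 2242, 1781 and 2013 after siKEAP1, 9545, 5921 and 9868 after siCCNF, and 4436, 5466 and 5173 after siKEAP1/siCCNF. Every depleted library was far under every siCONTROL library, the siKEAP1 libraries lowest. In CPM this was 2278 ± 269 in siCONTROL, 88.2 ± 16.0 after siKEAP1, 256 ± 22.4 after siCCNF and 191 ± 32.0 in the double depletion. H19 thus retained 3.87%, 11.2% and 8.37% of its siCONTROL level.

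The fall of H19 amounted to −4.69 on the log2 scale after siKEAP1 (SE 0.164, edgeR adjusted p = 5.67e-10), −3.15 after siCCNF (adjusted p = 8.21e-09) and −3.58 after siKEAP1/siCCNF (adjusted p = 4.78e-09). Among the 15122 genes tested, 10 fell further than H19 after siKEAP1, 52 after siCCNF and 39 after the double depletion. With siCONTROL replicate 1 and siKEAP1/siCCNF replicate 3 left out, the 3 values were −4.61, −3.06 and −3.63. H19 ranked 23rd of all genes by mean FPKM in siCONTROL and 1546th after siKEAP1, 453rd after siCCNF and 632nd in the double depletion, and it stayed the most abundant member per length in every group.

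Because H19 gives rise to miR-675 and Mest to miR-335, the mature sequences of these microRNAs (RefSeq, GRCm38.p6) are shown with the seed, bases 2 to 8, in capitals, as the part that pairs with targets. The miR-675 hairpin lies in an exon of 3 annotated H19 transcripts (miR-675-5p at chr7:142577112-142577133 and miR-675-3p at chr7:142577078-142577099, minus strand). That of miR-335 lies in an intron of 7 annotated Mest transcripts (miR-335-5p at chr6:30741314-30741336 and miR-335-3p at chr6:30741354-30741375, plus strand).
mmu-miR-675-5p: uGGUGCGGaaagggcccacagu
mmu-miR-675-3p: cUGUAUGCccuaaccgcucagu
mmu-miR-335-5p: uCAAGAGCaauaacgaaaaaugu
mmu-miR-335-3p: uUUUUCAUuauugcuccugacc
The 4 seeds differ from each other. The counts do not measure mature microRNAs: the hairpin row of miR-675 held 0 counts over the 12 libraries and that of miR-335 held 8. Only the host transcripts are described here.

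Igf2, the fetal insulin-like growth factor, lies 72622 bases from H19 (chr7:142650766-142666816, minus strand). It had 1, 0 and 1 counts in siCONTROL, 0 in each siKEAP1 library, 4, 3 and 3 after siCCNF, and 2, 0 and 2 after siKEAP1/siCCNF. These are 16 counts in all 12 libraries, against 187208 of H19. The siCCNF libraries were the ones in which each held 3 counts or more. Summed over each group, Igf2 stood at 0.0326 CPM in siCONTROL (exact Poisson 95% interval 0.00395 to 0.118), at 0.1 CPM after siCCNF (0.048 to 0.184) and at 0.0499 CPM after siKEAP1/siCCNF (0.0136 to 0.128). In siKEAP1 cells 0 of 68250475 counts were of Igf2, for which the same interval reaches up to 0.054 CPM. All 4 intervals, which cover counting error only, overlap, the one of siKEAP1 barely with that of siCCNF. No library of siKEAP1 reached the counts of any siCCNF library, and these 2 groups were not tested against each other. Igf2os, transcribed across Igf2 from the opposite strand, had 10 counts in all, and since strand use in counting is not given in the sources used here, reads of the overlap cannot be assigned to either. Gm49394, a protein-coding gene on the same strand that spans nearly all of Igf2 (chr7:142650769-142669942), was listed at 0 counts. How the counting treated reads shared by both genes is not given in the sources used here, so the low counts of Igf2 do not show that its transcript was absent.

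Igf2r encodes the mannose 6-phosphate receptor, which carries IGF2 to lysosomes and lowers its amount (chr17:12682406-12769664, minus strand). Its counts were 1733, 2190 and 2668 in siCONTROL, 2978, 3492 and 3364 after siKEAP1, 4398, 3465 and 5253 after siCCNF, and 3280, 4403 and 2298 after siKEAP1/siCCNF. Scaled for depth these were 108 ± 27.0, 142 ± 4.69, 134 ± 7.85 and 122 ± 18.6 CPM. The first siCONTROL library, at 77.7 CPM, was the lowest of all 12, and only the siKEAP1 group had no overlap with siCONTROL. Log2 differences from siCONTROL were 0.40 (95% interval 0.063 to 0.73, edgeR adjusted p = 0.0561) after siKEAP1, 0.30 (−0.028 to 0.64, adjusted p = 0.12) after siCCNF and 0.18 (−0.16 to 0.51, adjusted p = 0.38) after siKEAP1/siCCNF.

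The siKEAP1 value of Igf2r was called under some of the other settings, with an adjusted p of 0.0326 in DESeq2 and of 0.0111 once the trend with gene length had been removed from each library. Without siCONTROL replicate 1 and siKEAP1/siCCNF replicate 3 the log2 difference shrank to 0.19 while its adjusted p was 0.00763. After siCCNF it was called in 3 other settings, for example with the length trend removed (0.30, adjusted p = 0.0106). Without siCONTROL replicate 1 alone, the differences were 0.19 (adjusted p = 0.163) after siKEAP1, 0.11 (adjusted p = 0.402) after siCCNF and −0.02 (adjusted p = 0.878) after siKEAP1/siCCNF. Igf2r was not called lower in any of these comparisons. Airn, the paternally expressed antisense RNA that silences the paternal Igf2r allele and overlaps the gene, was rare, with 271 counts in all. It fell from 1.5 ± 0.558 CPM in siCONTROL to 0.667 ± 0.106 after siKEAP1 (log2 −1.16, adjusted p = 0.00929), 0.829 ± 0.145 after siCCNF (−0.84, adjusted p = 0.0312) and 0.626 ± 0.0376 after siKEAP1/siCCNF (−1.26, adjusted p = 0.005). Since strand use in counting is not given in the sources used here, reads of the overlap cannot be assigned to Airn or Igf2r. Slc22a2 and Slc22a3, imprinted neighbours of Igf2r, had 0 counts in every library.

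Dlk1, Meg3 and Rian belong to one imprinted cluster on chromosome 12. Dlk1 (chr12:109452823-109463336) encodes a membrane protein of the NOTCH ligand family that is known from fetal tissues and regenerating muscle, and Meg3 (chr12:109541001-109571726) and Rian (chr12:109603940-109661716) are maternally expressed noncoding RNAs, Rian being the host of small nucleolar RNAs. Each of the 3 had 0 counts in each of the 12 libraries. With 309738764 counts in all, a count of 0 allows up to 0.00969 CPM. The microRNA and small nucleolar RNA genes listed within Meg3 and Rian were at 0 as well. Elsewhere in the cluster, Rtl1 had 0 counts, Mirg 1 and Dio3 19 over all libraries, genes that were chosen after their values were seen. Dlk1, Meg3 and Rian were thus not detected in siCONTROL or depleted cells, and no comparison between groups could be made for them.

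Mest encodes an endoplasmic reticulum protein of the hydrolase fold family, and is expressed from the paternal allele in mesoderm (chr6:30723547-30748465, plus strand). It had 7812, 4213 and 4161 counts in siCONTROL, 1672, 1734 and 1495 after siKEAP1, 1564, 976 and 1587 after siCCNF, and 1422, 1745 and 1194 after siKEAP1/siCCNF. This gave 260 ± 79.6, 71.2 ± 6.10, 41.7 ± 3.41 and 54.2 ± 2.02 CPM, or 27.4%, 16.1% and 20.9% of siCONTROL in the depleted groups. No depleted library reached the siCONTROL range, in which replicate 1 was highest. On the log2 scale Mest fell by 1.87 after siKEAP1 (SE 0.163, edgeR adjusted p = 1.24e-06), by 2.64 after siCCNF (adjusted p = 7.13e-08) and by 2.26 after siKEAP1/siCCNF (adjusted p = 2.84e-07). With the 2 libraries that stood apart left out, the falls were −1.60, −2.36 and −1.97.

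Unlike H19, Mest was lower after siCCNF than after siKEAP1, and the siKEAP1/siCCNF libraries lay between both. Copg2, which overlaps the end of Mest on the opposite strand, stood at 67.2 CPM in siCONTROL, 59.5 after siKEAP1, 43.8 after siCCNF and 45.3 in the double depletion, falling in the last 2 groups (log2 −0.62, adjusted p = 7.42e-06, and −0.57, adjusted p = 1.86e-05). Its share in reads of the overlap cannot be told apart from that of Mest.

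Peg3 encodes a large zinc finger protein made from the paternal allele, which marks many progenitor cells, muscle satellite cells among them (chr7:6703892-6730431, minus strand). Its counts were 6459, 7741 and 8901 in siCONTROL, 4606, 4881 and 4974 after siKEAP1, 4655, 2945 and 5087 after siCCNF, and 3480, 4262 and 2045 after siKEAP1/siCCNF. The CPM values were 379 ± 77.9, 210 ± 10.8, 128 ± 11.8 and 120 ± 26.1. Peg3 kept 55.3% of its siCONTROL level after siKEAP1, 33.7% after siCCNF and 31.6% in the double depletion, with no overlap between any depleted group and siCONTROL.

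As log2 values the falls of Peg3 were −0.85 (SE 0.162, edgeR adjusted p = 0.000905), −1.57 (adjusted p = 5.35e-06) and −1.66 (adjusted p = 3.88e-06). They were −1.03, −1.73 and −1.66 without the 2 libraries that stood apart, both of which held the lowest Peg3 level of their group. Peg3 shares its imprinted domain with Usp29 and Zim1. The start of Usp29, a ubiquitin protease gene of the paternal allele, lies 146 bases from that of Peg3 and points the other way, and Zim1, a zinc finger gene of the maternal allele, lies 7441 bases from the other end of Peg3.

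Both neighbours fell with Peg3. Usp29 went from 3.94 ± 0.350 CPM in siCONTROL to 1.53 ± 0.444 after siKEAP1 (log2 −1.37, adjusted p = 0.0023), 0.961 ± 0.330 after siCCNF (−2.02, adjusted p = 0.000112) and 0.920 ± 0.329 after siKEAP1/siCCNF (−2.07, adjusted p = 0.000123). Zim1 went from 33.9 ± 8.53 CPM to 8.34 ± 1.22 (log2 −2.02, adjusted p = 8.78e-06), 9.67 ± 1.73 (−1.80, adjusted p = 1.52e-05) and 7.94 ± 1.98 (−2.09, adjusted p = 6.11e-06). Thus genes known as paternally expressed (Peg3, Usp29) and as maternally expressed (Zim1) in this domain were lower in all 3 depletions. Neither neighbour's depleted groups overlapped with siCONTROL, and the alleles themselves were not measured.

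Plagl1, a zinc finger transcription factor that halts the cell cycle (chr10:13060504-13131694, plus strand), was scarce. It had 13, 28 and 12 counts in siCONTROL, 18, 20 and 13 after siKEAP1, 9, 14 and 18 after siCCNF, and 10, 24 and 7 after siKEAP1/siCCNF. The spread within groups was as wide as the differences between them, with the exception that no siCCNF library reached the siCONTROL range in CPM. Log2 differences from siCONTROL were −0.25 (adjusted p = 0.705), −1.05 (adjusted p = 0.0846) and −0.82 (adjusted p = 0.18), of which the 95% intervals reached from −1.24 to 0.75, from −2.07 to −0.028 and from −1.84 to 0.20. None of the 3 was called, but they depended on single libraries. Without siCONTROL replicate 2, which had the most Plagl1, they were 0.34, −0.45 and −0.23. Without siCONTROL replicate 1 and siKEAP1/siCCNF replicate 3, the siCCNF value was −1.29 and was called (adjusted p = 0.0388).

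Grb10 encodes an adaptor that binds and restrains the insulin and IGF1 receptors, maternally expressed in most tissues (chr11:11930508-12038683, minus strand). It had 27, 15 and 7 counts in siCONTROL, 9, 10 and 7 after siKEAP1, 17, 5 and 3 after siCCNF, and 6, 0 and 8 after siKEAP1/siCCNF. Groups overlapped in every comparison. The log2 differences from siCONTROL were −1.06 (adjusted p = 0.263), −1.62 (adjusted p = 0.0791) and −2.11 (adjusted p = 0.0436). Without siCONTROL replicate 1 the siKEAP1 value was −0.60, and the siCCNF value was called in 4 other settings, such as without siCCNF replicate 1 (−2.56, adjusted p = 0.0312). The siKEAP1/siCCNF value was called, but the call was lost in 11 of 20 other settings, among them siCONTROL replicate 1 (adjusted p = 0.153) and siKEAP1/siCCNF replicate 2 (adjusted p = 0.125) left out. The neighbours of Grb10 on chromosome 11 were Ddc, an aromatic amino acid decarboxylase gene, and Cobl, an actin nucleator gene. Ddc fell in all 3 comparisons (log2 −2.25, −1.72 and −2.72, adjusted p = 0.000383, 0.00124 and 9.19e-05). Cobl fell after siCCNF (−1.66, adjusted p = 9.57e-07) and siKEAP1/siCCNF (−1.83, adjusted p = 6.48e-07) and stood at −0.28 after siKEAP1 (adjusted p = 0.126).

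**Figure D2:**
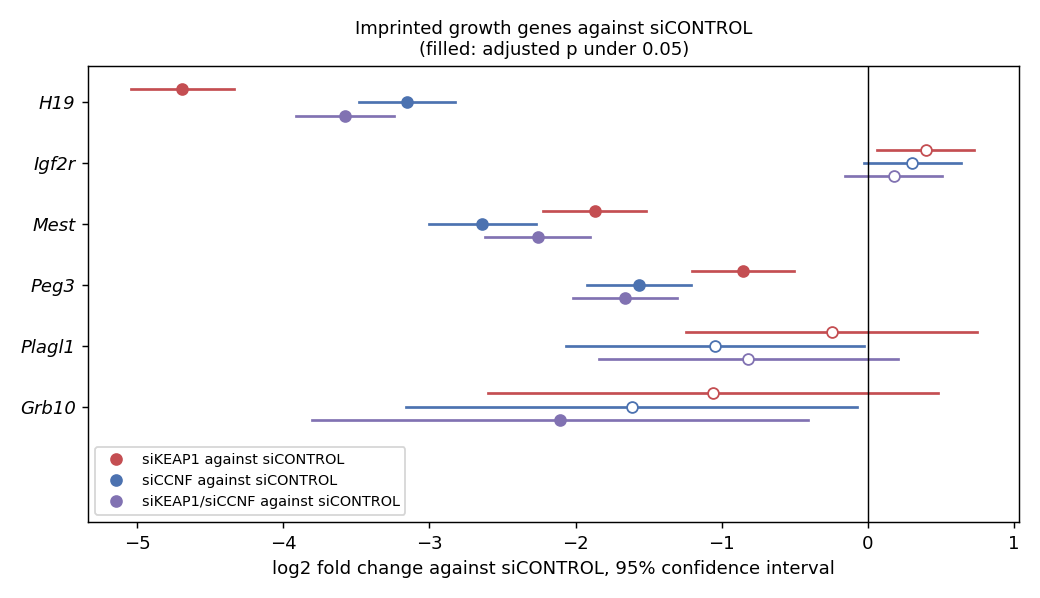
Log2 fold change of the 6 tested members against siCONTROL for siKEAP1 (red), siCCNF (blue) and siKEAP1/siCCNF (purple), with 95% confidence intervals from the fit across all genes; filled circles have an adjusted p under 0.05. H19 is farthest left in each colour, followed by Mest, Grb10 and Peg3 in that order, Igf2r lies right of 0, and Plagl1 and Grb10, the members with the lowest counts, have the widest intervals.

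The double depletion was compared with each single depletion, to ask what the second siRNA added. Keap1 itself stood at 12.6 ± 0.279 CPM after siKEAP1 and at 24.1 ± 2.56 CPM after siKEAP1/siCCNF. The part of CCNF loss and that of weaker Keap1 depletion cannot be told apart here. H19 was at 88.2 CPM after siKEAP1 and at 191 CPM after siKEAP1/siCCNF (log2 1.11, SE 0.144, edgeR adjusted p = 2.89e-05), with all 3 siKEAP1/siCCNF libraries above all 3 siKEAP1 libraries. Peg3 moved the other way, from 210 to 120 CPM (log2 −0.81, adjusted p = 0.00104). These were 1 rise and 1 fall among the members, where 24.1% of all genes tested rose and 26.9% fell. Mest was at −0.39 (95% interval −0.74 to −0.044, adjusted p = 0.0577), and was called in 8 of 21 other settings, DESeq2 among them (adjusted p = 0.0384). Without siCONTROL replicate 1, its adjusted p was 0.00106. Igf2r was at −0.22 (adjusted p = 0.251).

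KEAP1 loss in CCNF-depleted cells left 0 members called by edgeR, where 5.19% of all genes tested were called in either direction. At an unadjusted p under 0.05 there were 2 members, and DESeq2 and limma called 0. H19 went from 256 to 191 CPM (log2 −0.43, 95% interval −0.73 to −0.12, adjusted p = 0.113) and Mest from 41.7 to 54.2 CPM (0.38, 0.028 to 0.73, adjusted p = 0.229). With siCONTROL replicate 1 and siKEAP1/siCCNF replicate 3 left out, H19 at −0.58 (adjusted p = 0.00154) and Mest at 0.39 (adjusted p = 0.00374) were called. Peg3 stood at −0.09, with an interval from −0.45 to 0.26.

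The siKEAP1 effect thus differed in size between control and siCCNF-treated cells. This difference was tested as an interaction, the siKEAP1 effect measured under CCNF depletion less the one in control cells. It was positive for 3 members, H19 at 4.27 (SE 0.208, edgeR adjusted p = 1.3e-07), Mest at 2.25 (adjusted p = 2.97e-05) and Peg3 at 0.76 (adjusted p = 0.0317), where 10.6% of all genes tested were called in this direction. In each of these genes the effect in control cells was a fall, while in CCNF-depleted cells it was −0.43, 0.38 and −0.09 and was not called. Keap1 was also less depleted in siKEAP1/siCCNF (24.1 CPM) than in siKEAP1 cells (12.6 CPM), from which the state of CCNF cannot be told apart. For H19, 9 of the 15122 genes had a larger interaction value. The call on Peg3 was lost in 12 of 20 other settings, for example with siCCNF replicate 2 left out (0.69, adjusted p = 0.0867), whereas it was 1.09 (adjusted p = 3.05e-07) without the 2 libraries that stood apart. Igf2r had a value of −0.52 (adjusted p = 0.11) and was called in 4 other settings, with −0.21 (adjusted p = 0.0486) without those 2 libraries.

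**Figure D3:**
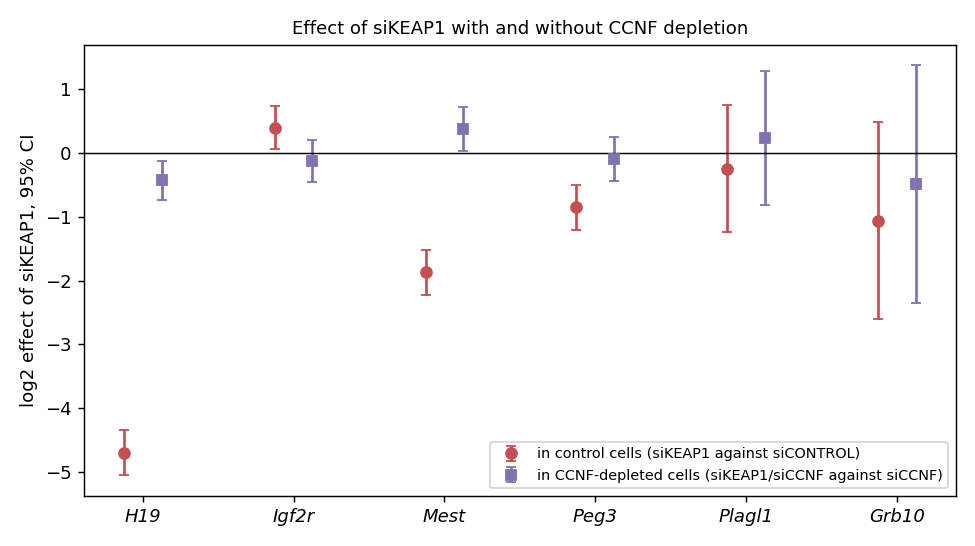
Log2 effect of siKEAP1 on the 6 tested members in control cells (red circles, siKEAP1 against siCONTROL) and in CCNF-depleted cells (purple squares, siKEAP1/siCCNF against siCCNF), with 95% confidence intervals. H19, Mest and Peg3 drop well under 0 in control cells and stand at −0.43, 0.38 and −0.09 in CCNF-depleted cells. There the intervals of H19 and Mest exclude 0, though neither was called, and that of Peg3 spans 0.

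Mest and Peg3 fell in all 3 depletions and Igf2r did not, and their promoters are shown for comparison (RefSeq, GRCm38.p6, in the direction of transcription, exonic bases left out). Mest is shown at chr6:30737800-30738049, Peg3 at chr7:6730432-6730577, which is the whole stretch between Peg3 and Usp29, and Igf2r at chr17:12769707-12769956. Capitals mark matches to the motifs searched for on both strands: the core of NRF2 sites (TGACNNNGC), E-boxes as bound by MYOD1 and related muscle factors (CAGCTG and CACCTG), and E2F sites (TTTGGCGC and TTTCCCGC).
Mest: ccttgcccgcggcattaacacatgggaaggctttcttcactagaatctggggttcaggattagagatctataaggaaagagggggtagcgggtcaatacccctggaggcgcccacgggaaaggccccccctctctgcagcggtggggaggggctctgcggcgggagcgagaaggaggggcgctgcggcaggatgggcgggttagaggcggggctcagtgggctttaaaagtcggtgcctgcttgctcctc
Peg3: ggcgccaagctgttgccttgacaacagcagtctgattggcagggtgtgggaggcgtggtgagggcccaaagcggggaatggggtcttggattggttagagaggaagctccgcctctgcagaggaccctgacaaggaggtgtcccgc
Igf2r: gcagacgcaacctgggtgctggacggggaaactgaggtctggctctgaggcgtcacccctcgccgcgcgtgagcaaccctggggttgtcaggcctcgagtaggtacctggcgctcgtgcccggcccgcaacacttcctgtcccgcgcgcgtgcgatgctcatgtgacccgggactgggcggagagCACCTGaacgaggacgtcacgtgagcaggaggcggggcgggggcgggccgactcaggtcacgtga
All 3 stretches are rich in G and C, at 62.4%, 61.6% and 69.2%, and the Igf2r one holds 27 CpG pairs where that of Mest holds 14. The Igf2r promoter has 1 CACCTG, and those of Mest and Peg3 hold no match. Of 16 windows of 250 bases upstream of the starts of 9 members, 1 other had matches, that of an upstream Mest start with 1 CAGCTG and 1 CACCTG. Over 32851 such windows of all genes, 10.2% hold the NRF2 core, 13% CAGCTG, 17.2% CACCTG and 1.3% an E2F site. These are matches of letters only, and bear on no factor's binding.

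H19, Mest and Peg3 fell in all 3 depletions, and so did most of the muscle genes listed here. Summed levels of 17 muscle differentiation genes, such as Myog, Mymk and Acta1, lay between 101 and 225 CPM in siCONTROL, highest in replicate 1, which also had the most H19 and Mest. They lay between 10.9 and 12.8 CPM after siKEAP1, between 36.5 and 54.4 after siCCNF and between 20.2 and 22.5 after siKEAP1/siCCNF. The groups thus came in the order of H19. They did not come in that of Mest, lowest after siCCNF, or of Peg3, least lowered after siKEAP1. Of the 14 tested, 13, 12 and 13 fell and 0 rose in the 3 comparisons with siCONTROL, with medians of −3.70, −1.53 and −3.04. All 5 myoblast markers (Myod1, Myf5, Des, Cdh15 and Pax7) fell in each comparison, their sum going from 1104 to 1311 CPM in siCONTROL to 630 to 666, 527 to 533 and 503 to 584 CPM. The part of differentiation, and of the other cell type markers that follow, in the falls of the members was not tested. Some markers of other cell types were at or near 0 over all 12 libraries, with 3 counts of Adipoq, 1 of Plin1, 4 of Ptprc, 3 of Adgre1 and 2 of Kdr. Others were expressed or changed. Pparg rose after siKEAP1 from 9.30 ± 2.31 to 30.0 ± 2.41 CPM (log2 1.69, adjusted p = 2.07e-06) and Cd68 from 0.997 ± 0.343 to 7.34 ± 2.38 CPM (2.90, adjusted p = 2.34e-05), Fabp4 went from at most 2 counts in each siCONTROL library to at least 49 in each siKEAP1 library, and Cebpa and Runx2 stood at 48.9 ± 0.335 and 74.1 ± 10.7 CPM in siCONTROL. The 5 adipocyte markers summed to between 55.5 and 60 CPM in siCONTROL, 79.7 and 84.5 after siKEAP1, 26.2 and 32.3 after siCCNF, and 34.8 and 42 after siKEAP1/siCCNF. Across groups, the 4 osteoblast markers to between 62.6 and 100 CPM, the 3 endothelial markers to between 0 and 1.38 CPM and the 3 macrophage markers to between 0.672 and 10.1 CPM, the last highest after siKEAP1 (5.39 to 10.1 CPM).

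The genes whose log2 CPM ran most closely with a member over the 12 libraries were named by Pearson's r, as a description over libraries that share group and depth. For H19 they were Fgfr4, a fibroblast growth factor receptor of muscle progenitors (r = 0.99), Apln (0.989) and Bcl7a (0.987). Fgfr4 went from 140 ± 22.9 CPM in siCONTROL to 11.7 ± 1.63, 34.2 ± 5.00 and 25.3 ± 3.78 in the depleted groups. For Mest they included Rfc3 (0.989) and Lrrc17 (0.987), and for Peg3 they were Eya4, a transcriptional coactivator (0.991), Pik3ca (0.99) and Arhgap28 (0.988). Igf2r ran with Akap10 (0.992), Usp24 (0.985) and Tmem131 (0.984). The scarce members had lower values, with Ccdc71 at 0.946 for Grb10 and Cnksr3 at 0.85 for Plagl1. Among the members themselves, r was 0.869 between Peg3 and Mest, 0.816 between H19 and Mest, and −0.637 between H19 and Igf2r. Taken as deviations from the group means, r was −0.459, 0.504 and −0.656 for these 3 pairs. The first of these rests largely on siCONTROL, where Peg3 and Mest lay on opposite sides of the group mean in each library. In siCONTROL replicate 1, Mest was at 0.47 and Peg3 at −0.37. Both lay on the same side in each siCCNF library, and the other groups were mixed.

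A list of 47 other imprinted genes was read beside the members. Of these, 8 had 0 counts in all libraries and 30 could be tested. Of the 30, siKEAP1 lowered 11 and raised 2, siCCNF lowered 10 and raised 3, and siKEAP1/siCCNF lowered 10 and raised 2. Their median log2 changes were −0.22, −0.18 and −0.17, where the medians of all genes tested were −0.01, 0.01 and 0.01. Paternally expressed genes had 6, 4 and 4 falls among 17 tested, and maternally expressed ones 5, 6 and 6 among 13. Of all genes tested, 20.2%, 25.5% and 23.6% fell in these comparisons, so the paternally expressed genes were close to the background after siCCNF and siKEAP1/siCCNF.

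The largest changes in that list, beyond the neighbours named above, went in both directions. Slc22a18, an organic cation transporter gene, rose after siKEAP1 from 1.19 ± 0.579 to 6.96 ± 0.738 CPM (log2 2.57, adjusted p = 0.000102) and was at 1.18 ± 0.227 CPM after siKEAP1/siCCNF. Dcn, which encodes the matrix proteoglycan decorin, fell after siKEAP1 (7.15 to 3.36 CPM, log2 −1.09, adjusted p = 7.88e-05), but rose after siCCNF to 28.7 CPM (2.01, adjusted p = 9.11e-08) and after siKEAP1/siCCNF to 21.6 CPM (1.60, adjusted p = 8.47e-07). Cdkn1c, an inhibitor of cyclin-dependent kinases, fell after siKEAP1 (log2 −1.61, adjusted p = 0.000108) and after siKEAP1/siCCNF (−0.70, adjusted p = 0.0193), where it was higher than after siKEAP1 (0.91, adjusted p = 0.00599). Ndn and Rasgrf1 fell after siKEAP1 (−1.07, adjusted p = 0.000136, and −2.34, adjusted p = 0.00195), and neither was called after siCCNF (0.37, adjusted p = 0.0521, and 0.38, adjusted p = 0.43).

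**Figure D4:**
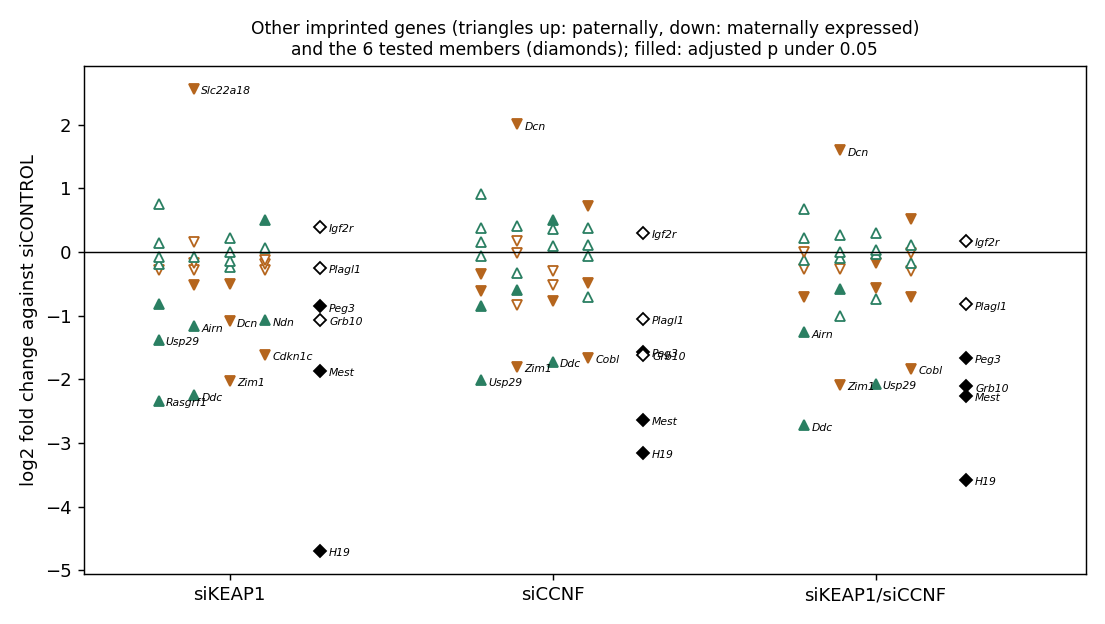
Log2 fold change against siCONTROL of 30 other imprinted genes (green triangles up for paternally expressed, brown triangles down for maternally expressed) and of the 6 tested members (black diamonds) in each depletion; filled symbols have an adjusted p under 0.05. H19 lies under every other imprinted gene in each depletion, Slc22a18 stands out above 0 after siKEAP1, and Dcn does so after siCCNF and siKEAP1/siCCNF.

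With few counts of Igf2 itself, its partners were measured as a list of 13 genes, all of which could be tested. After siKEAP1 4 rose and 4 fell, after siCCNF 7 rose and 5 fell, and after siKEAP1/siCCNF 6 rose and 4 fell, with medians of −0.14, 0.56 and 0.47. Rises made up 20.4%, 22.5% and 20.6% of all genes tested, and falls 20.2%, 25.5% and 23.6%. Igf1, the other ligand, fell from 51.3 ± 4.88 CPM in siCONTROL to 3.59 ± 1.13 after siKEAP1 (log2 −3.85, adjusted p = 1.3e-08), 19.4 ± 2.90 after siCCNF (−1.40, adjusted p = 1.84e-05) and 10.3 ± 1.71 after siKEAP1/siCCNF (−2.32, adjusted p = 4.45e-07). Igfbp5, the secreted binding protein known from muscle differentiation, fell from 2342 ± 135 to 380 ± 66.2, 323 ± 18.9 and 277 ± 31.1 CPM. Igfbp4 rose after siCCNF from 10.1 ± 1.66 to 73.3 ± 8.24 CPM (2.86, adjusted p = 5.38e-09). It stood at 14.0 ± 0.565 CPM after siKEAP1 and at 91.0 ± 9.47 CPM after siKEAP1/siCCNF. Igf2bp1 and Igf2bp2, which encode proteins that bind Igf2 and H19 transcripts, were higher after siCCNF: Igf2bp1 had 3 counts or fewer in each siCONTROL library and at least 66 in each siCCNF library, and Igf2bp2 went from 32.5 ± 7.36 to 89.8 ± 6.56 CPM (1.47, adjusted p = 2.91e-06). After siKEAP1/siCCNF, Igf2bp1 had at least 40 counts in each library and Igf2bp2 stood at 85.5 ± 10.2 CPM. After siKEAP1, Igf2bp1 had 1 count in each library and Igf2bp2 stood at 58.4 ± 4.29 CPM.

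Deviations of the well expressed members, H19, Mest, Peg3 and Igf2r, within groups differed by gene length. In the first siCONTROL library the long transcripts Igf2r (9308 bases) and Peg3 (13324 bases) were 0.45 and 0.37 lower than their group mean of log2 CPM, while the shorter H19 (2460 bases) and Mest (3945 bases) were 0.19 and 0.47 higher. The third siKEAP1/siCCNF library had Igf2r 0.26 and Peg3 0.39 lower and H19 0.27 higher, whereas Mest, at −0.05, was close to its group mean. The scarce members, also long, went apart. In the first siCONTROL and the third siKEAP1/siCCNF library, Grb10 (9089 bases) stood at 0.72 and 0.97. Plagl1 (7819 bases) stood at −0.42 and −0.46 there. Once the trend with length was removed from each library, H19, Mest and Peg3 stood at −4.76, −1.94 and −0.95 after siKEAP1, at −3.12, −2.58 and −1.61 after siCCNF, and at −3.59, −2.23 and −1.63 after siKEAP1/siCCNF, and were called in each.

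**Figure D5:**
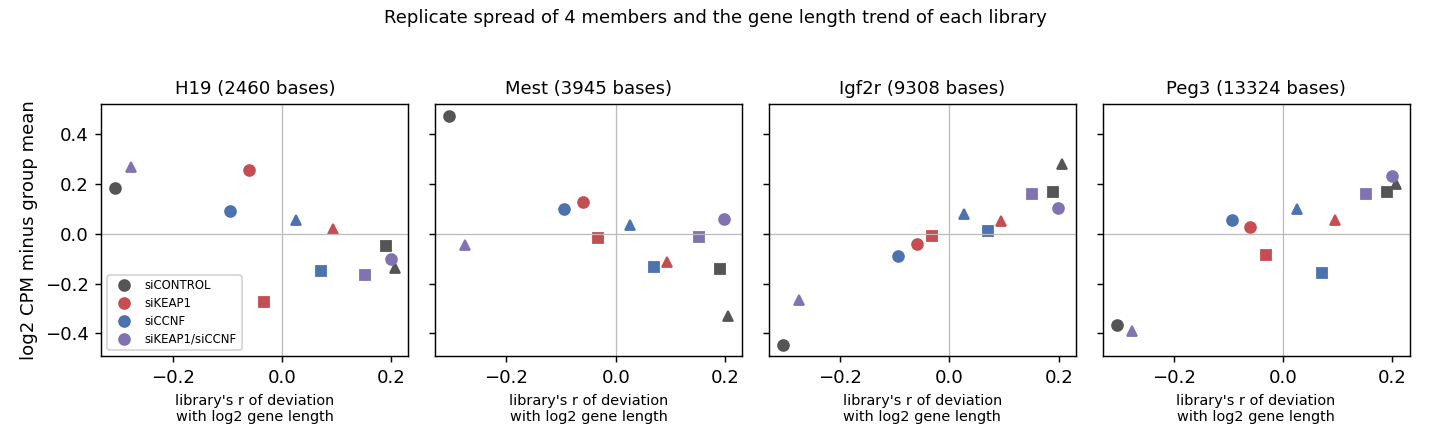
Deviation of 4 members from their group mean in each of the 12 libraries (vertical axis, log2 CPM) against that library's correlation between the deviations of all genes and log2 gene length (horizontal axis); colours are groups and circles, squares and triangles are replicates 1, 2 and 3. The 2 libraries at the left, siCONTROL replicate 1 and siKEAP1/siCCNF replicate 3, have the lowest Igf2r and Peg3 values and high H19.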

How the data were processed

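Total RNA of C2C12 cells was poly(A)-selected, and library preparation, sequencing and read analysis were done for the authors by Novogene. The deposited table holds 2 kinds of value for each library, a raw gene-level count and an FPKM value scaled by gene length and depth, both made for the authors by that provider. It also holds the authors' own comparisons (group means, fold changes, p-values), which were not used. HISAT2 and the GRCm39 build are named in the submitters' processing notes, whereas 53499 of 54409 matched genes, all 10 members included, have the start and end of GENCODE on GRCm38. GRCm38 is therefore used here. The counting tool, its annotation and its use of strand are not given in the sources used here. The paper and the labels state different serum contents for these cells.

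The tests used edgeR 4.0.16 under R 4.3.3: filterByExpr retained 15122 of 54532 genes, TMM gave the scaling, and the quasi-likelihood fit took in all 12 libraries with a mean for each of the 4 groups. Benjamini-Hochberg adjustment spanned every gene tested. SE values were derived from the log2 fold change and its F value. P-values rest on the spread between replicates within groups, estimated over all 12 libraries and partly shared across genes. A library outside a comparison can therefore move its p-value. The labels call the 3 replicates of each group biological. The share of all genes whose groups did not overlap was not counted, so a lack of overlap is a description only. A floor of 3 counts was used for genes at 0, and intervals and floors cover counting error only. On simulated counts the test was checked for recovery of known changes.

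The members, and the lists of other imprinted genes, IGF2 partners, imprint maintenance factors and markers, were chosen with earlier results of these data known. Every member is named. List genes are named where called past 2-fold in any comparison with siCONTROL (up to 12 imprinted genes and 5 of each other list), and for each member the 3 genes of highest r with a mean log2 CPM of at least 1. A gene selected by this rule is not reported here. Neighbours outside that rule (Copg2, Rtl1, Mirg, Dio3, Slc22a2, Slc22a3, Igf2os, Gm49394), Myod1 and other marker genes were named after their values were seen or from the marker lists. Alternatives were DESeq2 1.42.0, total library sizes, no filter or at least 10 counts in every library, a replicate block, limma 3.58.1 on log2(FPKM + 1), a fit of the compared groups alone, removal of a gene length trend, and leaving out libraries. Sequences are from RefSeq tables on GRCm38.p6. A promoter was found for 9 members, all but H19.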

Additional observations from a re-analysis of the deposited data

Results flagged for a closer look

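In 3 members the effect of siKEAP1 differed between control cells and CCNF-depleted cells when the difference itself was tested in edgeR's model. Of all genes tested, 10.6% were called in the same direction. So were 5 of 5 myoblast markers and 8 of the 14 muscle differentiation genes tested. Keap1 was also less depleted in siKEAP1/siCCNF (24.1 CPM) than in siKEAP1 cells (12.6 CPM), and the part of this was not tested. For H19 the difference was 4.27 on the log2 scale (adjusted p = 1.3e-07), from a fall of −4.69 in control cells to −0.43 in CCNF-depleted cells. It stayed between 4.03 and 4.40 under the 20 other settings. For Mest it was 2.25 (adjusted p = 2.97e-05), from −1.87 to 0.38, with a range of 1.97 to 2.40. For Peg3 it was 0.76 (adjusted p = 0.0317), from −0.85 to −0.09, with a range of 0.65 to 1.09, and this call was lost in 12 of the 20.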

How the results depend on the processing

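Over 36 tests of single members and up to 21 other settings each, 738 values were made. Of these, 680 kept their side of the threshold, 23 were no longer called, 35 became called and 0 called values changed sign. In 26 of the 36 tests the side of the threshold was the same in every setting. Values that were not called could change sign. Plagl1 after siKEAP1, for example, went from −0.25 to 0.34 without siCONTROL replicate 2. H19, Mest and Peg3 stayed called against siCONTROL in all settings. After siCCNF the number of members called, 3, became 5 with no filter on low counts, and ranged from 3 to 5 with single libraries left out (5 without siCONTROL replicate 3). For siKEAP1/siCCNF against siCCNF, 0 became 2 with no filter, 1 with the compared groups only, 1 with the length trend removed and 2 without both siCONTROL replicate 1 and siKEAP1/siCCNF replicate 3, with a range from 0 to 2 over single libraries left out (2 without siCONTROL replicate 1, 1 without siKEAP1/siCCNF replicate 3). The cause was not tested. Replicate numbers gave no clear pairing over all groups (r between same-numbered deviations of −0.268 to 0.204). The largest r between libraries of different groups, 0.39, joined siCONTROL replicate 1 and siKEAP1/siCCNF replicate 3, whose numbers differ. Among siCONTROL, siKEAP1 and siCCNF every same-numbered r was positive (0.00352 to 0.204), and the negative ones all involved siKEAP1/siCCNF. Pairing is therefore not excluded. With a replicate block, 3, 3 and 4 members were called against siCONTROL, 3 against siKEAP1 (Mest added, log2 −0.39, adjusted p = 0.0252), 0 against siCCNF and 2 for the interaction (Peg3 lost, 0.76, adjusted p = 0.058). Other scalings moved the median of all genes by less than 0.03 on the log2 scale. Depth limits Igf2, Grb10 and Plagl1, and with no counts Dlk1, Meg3 and Rian.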

Other observations

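Factors that maintain imprints were all measurable. Of 12 such genes, 2 rose and 3 fell after siKEAP1, 4 rose and 5 fell after siCCNF, and 4 rose and 2 fell after siKEAP1/siCCNF, with medians of 0.04, −0.17 and −0.05 on the log2 scale. Of all genes tested, 20.4%, 22.5% and 20.6% rose and 20.2%, 25.5% and 23.6% fell in these 3 comparisons. Falls after siKEAP1 numbered 5 without the 2 libraries that stood apart, and those after siKEAP1/siCCNF numbered 4. The shares of all genes in that setting are not given here. Uhrf1, which guides DNMT1 to replicated DNA, fell from 211 ± 13.7 CPM in siCONTROL to 140 ± 5.48 after siKEAP1 (log2 −0.59, edgeR adjusted p = 9.77e-06), 97.8 ± 3.41 after siCCNF (−1.11, adjusted p = 3.89e-08) and 117 ± 4.90 after siKEAP1/siCCNF (−0.85, adjusted p = 3.96e-07). DNA methylation was not measured in these libraries.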
